A study of Mus musculus with 18 samples.

Results

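Alginate oligosaccharide (AOS), a short carbohydrate made from seaweed alginate, can reach a diabetic mouse in 2 ways here: given to the animal itself, or through gut microbes taken from a donor that had received it. The livers compared were those of HS+A10 mice (high-fat diet, streptozotocin and AOS at 10 mg/kg) and of A10-FMT mice (the same diet and streptozotocin, with a microbiota transplant from AOS-dosed donors), and they were chosen by their labels. They make up 6 of the 18 livers in the series, 3 a group. The others are HS (high-fat diet and streptozotocin), Con-FMT (the same with a transplant from undosed donors), Con and A10 (AOS at 10 mg/kg without diet or streptozotocin), again 3 each. All 18 livers came from ICR mice, an outbred strain, at an age of 10 weeks, and the study's methods state that male mice were used. Those methods describe the Con, HS, Con-FMT and A10-FMT groups but no HS+A10 group, which is known here only from its labels.

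Every animal of both groups carried the diet and streptozotocin, a toxin of insulin-secreting beta cells, so neither group is a healthy control. The donor material was small-intestinal content pooled within each donor group, so the 3 A10-FMT livers shared a donor pool and do not sample separate donors. The A10-FMT group had no dose of AOS of its own, and the route, start and length of dosing in the HS+A10 group are not given in the sources used here. Route of exposure, dose reaching the animal and any difference in handling or cohort cannot be told apart in this comparison.

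Gene levels were RPKM (reads per kilobase of transcript, scaled to the total of mapped reads), so levels of different genes can be set side by side. Of 19057 listed genes, 10204 had a mean of at least 1 RPKM and were tested. The number of reads behind the values is unknown. An estimate from the steps between low values of 29 genes gave 0.994 to 1.03 of the common mean depth. That estimate started from equal depth and kept only genes that fitted it, so it cannot show that the depths were equal. Libraries of a group correlated at 0.988 to 0.991 (Pearson's r of log2 values across genes) and libraries of different groups at 0.974 to 0.986, with A10-FMT replicate 3 the least like the HS+A10 livers. The 10 most abundant genes took 32.7 to 35.2% of all RPKM in HS+A10 and 35.5 to 41.7% in A10-FMT. The labelled tissue matched its markers, the 10 hepatocyte genes summing to between 67427 and 79586 RPKM in every one of the 6 livers.

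During fasting, on a fatty diet and in uncontrolled diabetes the liver burns fatty acids. PPARα, a nuclear receptor activated by fatty acids, switches on the genes for their uptake, their activation, their oxidation in mitochondria and peroxisomes, and ketone body synthesis. When fat arrives faster than it is burned, the liver stores it as triglyceride in droplets coated by perilipins and CIDE proteins.

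Genes for burning and storing fat were among those lower in livers that had received microbiota from AOS-dosed donors than in livers of directly dosed mice. Of the 10204 genes, 1193 (11.7%) differed at an adjusted p under 0.05: 73 (0.715%) were higher in A10-FMT and 1120 (11%) were lower. Most differences were small. The median size among called genes was 0.44 on the log2(RPKM + 1) scale used for all differences below, 81 called genes differed by at least 1, and the range ran from -5.75 (Cyp4a14) to 2.65 (Egr1). The median over all genes was itself -0.12. With library medians set equal (median scaling), 551 genes passed (5.4%): 177 (1.73%) with a higher and 374 (3.67%) with a lower level in A10-FMT, of which 69 and all 374 were also called without that scaling. Leaving the 10 most abundant genes out of the scaling instead gave 1307 genes, 80 higher and 1227 lower.

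**Figure D1:**
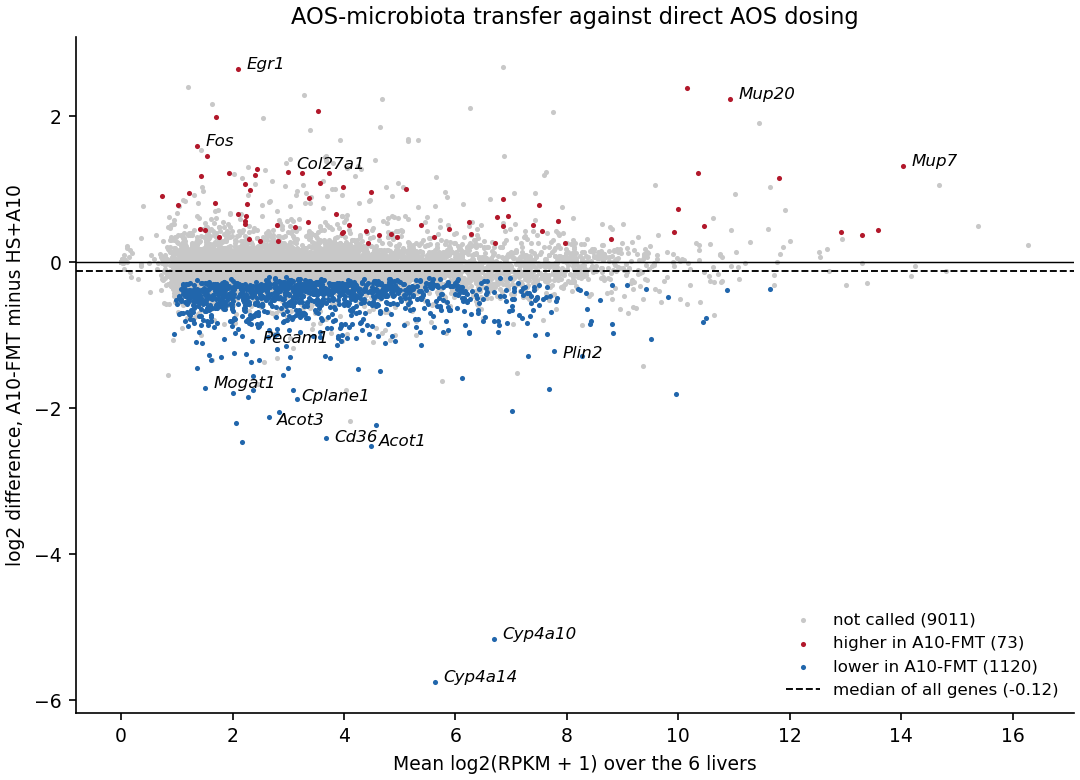
Difference between A10-FMT and HS+A10 livers for each of the 10204 tested genes (vertical axis, log2 of RPKM + 1, A10-FMT minus HS+A10) against the mean level over the 6 livers (horizontal axis, same scale). Red points are the 73 genes higher in A10-FMT, blue points the 1120 lower, grey points were not called, and the dashed line is the median of all genes at -0.12; Cyp4a14 and Cyp4a10 lie far below every other gene.

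The largest differences were in the fatty acid omega-hydroxylases of the Cyp4a family, textbook reporters of PPARα activity. Cyp4a14 (chr4:115486200-115496142, GRCm38) stood at 386, 283 and 432 RPKM in the HS+A10 livers and at 20.8, 5.59 and 1.13 RPKM in the A10-FMT livers, a difference of -5.75 ± 0.92 (SE; adjusted p = 0.00254). Its neighbour Cyp4a10 (chr4:115518264-115533649) stood at 864, 541 and 501 RPKM against 48.1, 16.4 and 4.99 RPKM, a difference of -5.16 ± 0.80 (adjusted p = 0.00217). Every HS+A10 liver was above every A10-FMT liver for both genes, as for 28% of all genes tested, by 40.1-fold and 27.4-fold in group means, and within A10-FMT replicate 1 was far above replicate 3. The third called member, Cyp4a32, fell from 120.5 ± 21.7 to 40.3 ± 12.5 RPKM (SD, n = 3). These genes are close copies, and reads shared between copies may have been counted for any of them.

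The acyl-CoA thioesterases, which release fatty acids from coenzyme A, were lower too, and Acot1 had the third largest difference of the PPARα targets. Acot1 (cytosolic; chr12:84009490-84018371) was at 57.9, 45.6 and 54.7 RPKM in HS+A10 and at 12.1, 7.96 and 5.88 RPKM in A10-FMT, a difference of -2.52 ± 0.34 (adjusted p = 0.00144). The mitochondrial Acot2 fell from 8.43 ± 0.911 to 1.87 ± 0.77 RPKM, and the peroxisomal Acot3 and Acot4 fell from 13 ± 5.63 to 2.23 ± 1.54 RPKM and from 14.7 ± 2.44 to 7.03 ± 2.94 RPKM. The groups did not overlap for any of the 4, all lower in A10-FMT. Of the 9 Acot genes tested, a family picked after its values were seen, 6 were lower, against 11% of all genes.

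Acot1 to Acot4 sit side by side on chromosome 12 and fell together, so the 150 bases before each start are shown, from RefSeq (GRCm38.p6, plus strand), with capitals marking the nuclear receptor half-site AGGTCA, searched as AGGTCA or TGACCT on both strands.
Acot1 (chr12:84009352-84009501): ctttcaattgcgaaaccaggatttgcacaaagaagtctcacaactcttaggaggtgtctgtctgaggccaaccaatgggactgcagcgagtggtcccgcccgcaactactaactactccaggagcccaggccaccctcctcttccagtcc
Acot2 (chr12:83987711-83987860): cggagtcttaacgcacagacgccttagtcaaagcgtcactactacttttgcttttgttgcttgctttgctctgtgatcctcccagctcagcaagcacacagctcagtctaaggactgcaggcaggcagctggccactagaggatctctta
Acot3 (chr12:84051994-84052143): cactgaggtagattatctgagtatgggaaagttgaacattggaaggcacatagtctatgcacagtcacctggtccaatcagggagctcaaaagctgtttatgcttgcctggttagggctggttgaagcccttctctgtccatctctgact
Acot4 (chr12:84038229-84038378): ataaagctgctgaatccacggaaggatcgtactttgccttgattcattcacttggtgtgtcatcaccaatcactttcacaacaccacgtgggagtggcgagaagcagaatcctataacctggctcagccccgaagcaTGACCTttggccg
Over the whole window of 250 bases before to 50 after the start, the half-site was found in Acot4 (13 bases before the start) and Acot3 (18 bases after it) and not in Acot1 or Acot2. The 4 windows shared 43.3 to 47.5% of aligned positions in pairs. The half-site occurred in 16.3% of all 32851 promoter windows, in 2 of the 10 PPARα targets with a window (Acot3 and Creb3l3) and in 6 of the 32 oxidation genes with a window, and its direct repeat with a spacer base, the usual PPAR element, in 0.0396% of all windows and in none of these. A match is only a match of letters.

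Over the list of 17 PPARα targets tested, 11 were lower in A10-FMT, against 11% of all genes, and none was higher, with a median difference of -0.80 against -0.12 for all genes. Vnn1, a pantetheinase, fell from 50.8 ± 2.6 to 11.4 ± 6.49 RPKM (-2.23 ± 0.61, adjusted p = 0.0293). Ucp2, Creb3l3 and Cpt1b were also lower. Ppara itself, at 40.8 ± 2.67 and 31.5 ± 4.22 RPKM, was not called (-0.37, adjusted p = 0.273), nor were Pdk4, Angptl4 and the hormone gene Fgf21 (2.28 ± 1.21 and 2.78 ± 1.35 RPKM). After median scaling 7 of the 17 were called, all lower, against 3.67% of all genes, and without Vnn1 (limma adjusted p = 0.0588). Without median scaling, the count of 11 fell to 6 without A10-FMT replicate 3 and to 7 without A10-FMT replicate 2 or HS+A10 replicate 3.

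Genes of fatty acid oxidation in mitochondria and in peroxisomes were among those lower in A10-FMT. Of 20 genes of mitochondrial beta-oxidation, 13 were lower, against 11% of all genes, none was higher, and all 20 differences were below 0 (median -0.57). The 13 included genes of import into the mitochondrion (Slc25a20 and Cpt2) and the acyl-CoA dehydrogenases for long to short chains (Acadvl, Acadl, Acadm, Acads). Both subunits of the trifunctional protein were among them, as were Eci1 and Decr1, auxiliary enzymes for unsaturated chains, but not Eci2. Hadhb, the beta subunit, stood at 199, 194 and 174 RPKM in HS+A10 and 129.6, 107 and 98.6 RPKM in A10-FMT (-0.76 ± 0.15, adjusted p = 0.00749). Decr1, which reduces double bonds, stood at 125, 124 and 106 RPKM against 79.8, 63.5 and 60.7 RPKM (-0.80 ± 0.18, adjusted p = 0.0114). For both genes the lowest HS+A10 liver was above the highest A10-FMT liver, as for 28% of all genes. Cpt1a, the gatekeeper of import, was not called, at 133 ± 25.3 and 94 ± 15.6 RPKM (adjusted p = 0.0982).

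Peroxisomes shorten very long fatty acids, and 10 of the 18 peroxisomal genes tested were lower, against 11% of all genes, and none higher (median -0.48). Ehhadh, the bifunctional enzyme of the peroxisomal pathway (chr16:21761287-21787807), stood at 256, 237 and 289.6 RPKM against 73.8, 63 and 53.1 RPKM, a 4.12-fold difference in means (-2.03 ± 0.27, adjusted p = 0.00144). Pex11a, which drives peroxisome division, fell from 75.6 ± 3.92 to 38.7 ± 4.13 RPKM, and the thiolase Acaa1b from 1052 ± 121 to 506 ± 24.9 RPKM. After median scaling 8 of 20 mitochondrial and 5 of 18 peroxisomal genes were called, again all lower, against 3.67% of all genes. Without that scaling, the counts of 13 mitochondrial and 10 peroxisomal genes depended on single livers. They were 6 and 3 without A10-FMT replicate 3, 8 and 4 without A10-FMT replicate 2, and 7 and 3 without HS+A10 replicate 2. The mitochondrial count was also 8 without HS+A10 replicate 1.

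**Figure D2:**
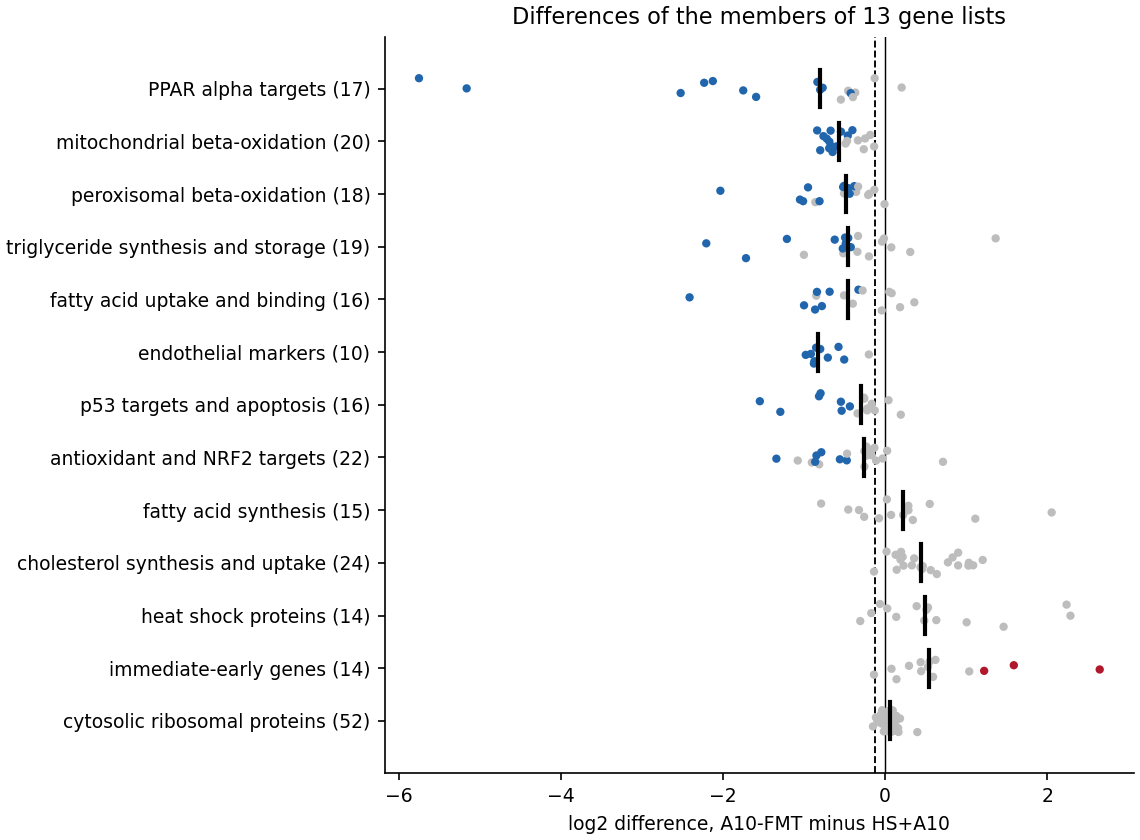
Differences between A10-FMT and HS+A10 (log2 of RPKM + 1, horizontal axis) for the tested members of 12 gene lists and the endothelial markers, with the number tested in brackets. Each point is a gene, blue where called lower and red where called higher, the black bar is the list's median, and the dashed line is the all-gene median of -0.12; the PPARα targets reach furthest down, with a median of -0.80, while the 52 ribosomal protein genes sit near 0.

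Several genes that bring fat into the cell and store it were lower too. Cd36, a fatty acid transporter (chr5:17781690-17888801), was at 34.6, 34 and 19.8 RPKM in HS+A10 and at 9.28, 3.16 and 3.02 RPKM in A10-FMT, a 5.72-fold difference in means (-2.41 ± 0.32, adjusted p = 0.00139). Of 16 uptake and binding genes, 7 were lower, against 11% of all genes, and none higher (median -0.45). Among the 7 were Acsl1, which activates long chains (599 ± 28.1 and 338 ± 59 RPKM), Vldlr (2.68 ± 0.577 and 1.01 ± 0.146 RPKM) and the carrier Fabp4 (21.3 ± 2.52 and 10.1 ± 1.24 RPKM). Cd36, Fabp4 and Lpl are also made by endothelial cells or macrophages, whose markers were lower too, as given with the marker genes. Their part in the result was not tested, and in whole-liver RNA fewer cells of a type and less RNA per cell cannot be told apart.

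Of 19 genes of triglyceride synthesis and storage, 9 were lower, against 11% of all genes, and none higher (median -0.45). Cidec, which fuses lipid droplets, stood at 9.51, 6.54 and 8.18 RPKM against 1.46, 0.71 and 0.76 RPKM, 8.27-fold in means (-2.21 ± 0.31, adjusted p = 0.00183). Mogat1, which makes diacylglycerol, stood at 4.27, 5.29 and 3.1 RPKM against 1.15, 0.35 and 0.32 RPKM (-1.72 ± 0.23, adjusted p = 0.00144). Mogat1 reached the tested level only through HS+A10, with means of 0.087 to 1.28 RPKM in the other groups. Plin2, the main droplet coat protein of hepatocytes, stood at 295, 419 and 298 RPKM against 161, 155 and 118 RPKM (-1.21 ± 0.24, adjusted p = 0.00619). No HS+A10 liver overlapped an A10-FMT liver for these 3 genes, as for 28% of all genes. The called genes also included the lipases Pnpla2 and Lipe, the Pnpla2 activator Abhd5, and Mttp and Apob, which load and carry secreted lipoproteins (Apob 462 ± 44.4 and 323 ± 46.1 RPKM). Of 15 genes of fatty acid synthesis none was called by limma (1 higher and 2 lower at an unadjusted p under 0.05), with 10 differences above 0. After median scaling 3 of the 16 uptake genes and 5 of the 19 storage genes were called, 1 of the latter higher. Of all genes 3.67% were lower and 1.73% higher after that scaling. Without median scaling, the lower counts of 7 (uptake) and 9 (storage) depended on single livers. They were 2 and 5 without A10-FMT replicate 3, 4 and 5 without A10-FMT replicate 2, and 4 and 6 without HS+A10 replicate 2. The uptake count was 4 without HS+A10 replicate 3, and the storage count was 5 without HS+A10 replicate 1.

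**Figure D3:**
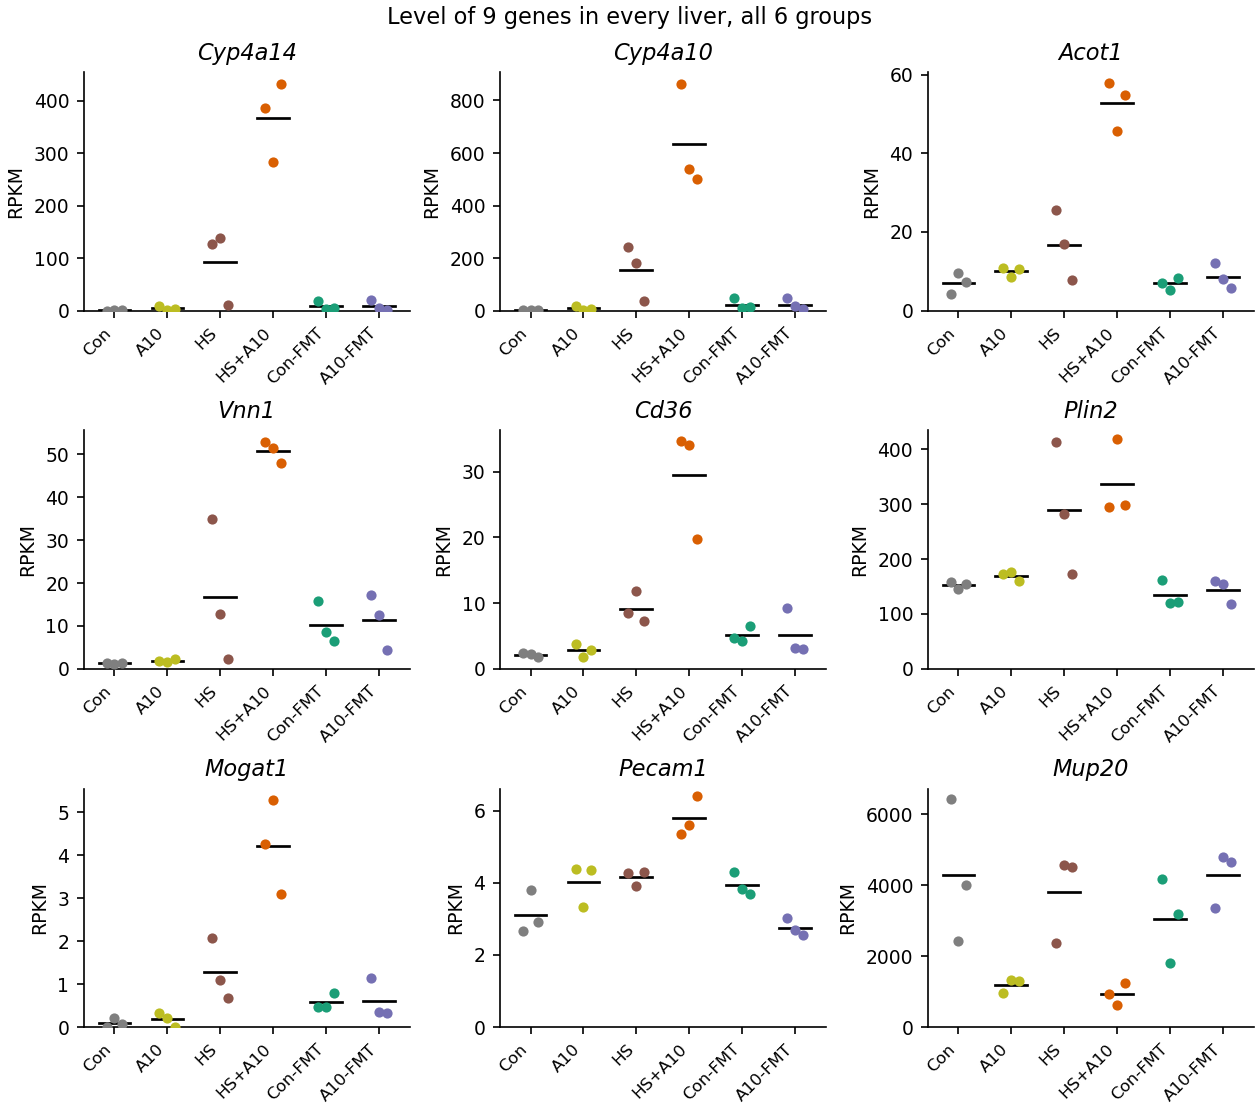
RPKM of 9 genes in every liver of the 6 groups (3 points a group, vertical axis from 0 in RPKM; black bars are group means). Cyp4a14, Cyp4a10, Acot1, Cd36 and Mogat1 have their highest group mean in HS+A10, and in A10-FMT and Con-FMT the points of these 5 genes overlap; Mup20 is low in HS+A10 and A10.

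The other 4 groups place these levels. Cyp4a14 averaged 92.5 RPKM in HS, where its 3 livers stood at 127, 139 and 11.4 RPKM, 8.53 RPKM in Con-FMT, 4.4 RPKM in A10 and 0.44 RPKM in Con. Mean Acot1 was 16.8 RPKM in HS and 6.97 RPKM in Con-FMT, and mean Cd36 was 9.18 RPKM and 5.13 RPKM. The A10-FMT means of these 3 genes were 9.16, 8.64 and 5.15 RPKM, and the HS+A10 means, at 367, 52.7 and 29.5 RPKM, were the highest of all groups. Against their own controls, Acot1 rose by 1.73 ± 0.34 from HS to HS+A10 (adjusted p = 0.00943) and differed by 0.24 ± 0.34 between A10-FMT and Con-FMT (adjusted p = 0.672). For Cyp4a14 the same differences were 2.58 ± 0.92 (adjusted p = 0.0961) and -0.14 ± 0.92 (adjusted p = 0.939).

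The genes higher in A10-FMT included several secreted liver proteins. Major urinary proteins are small carriers of pheromones, made by the liver under growth hormone control and more abundant in males. Mup20, which encodes the male pheromone darcin (chr4:62050234-62054158), was at 929, 628 and 1229.6 RPKM in HS+A10 and at 3359.9, 4803 and 4664 RPKM in A10-FMT, 4.6-fold higher in means (2.24 ± 0.37, adjusted p = 0.00303). Mup20 was also low without diabetes when AOS was dosed, at 968, 1313 and 1286 RPKM in A10 against 6428, 2436 and 3988 RPKM in Con, and it averaged 3815 RPKM in HS. Of 20 Mup genes tested, a family picked after its values were seen, 6 were higher, against 0.715% of all genes. These were Mup20, Mup3, Mup7, Mup21, Mup19 and Mup18, and 19 of the 20 differences were above 0 (median 0.76). Copies in this family are alike in sequence, though not all to the same degree. How reads shared by them were counted is uncertain, so the values of single Mup genes may be mixtures.

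Mup3 and Mup21 both rose, and their promoters show how alike the copies are: the 150 bases before each start, from RefSeq (GRCm38.p6, minus strand), have the TATA-like motif TATATAAG in capitals, searched on both strands with its reverse CTTATATA.
Mup3 (chr4:62087318-62087467): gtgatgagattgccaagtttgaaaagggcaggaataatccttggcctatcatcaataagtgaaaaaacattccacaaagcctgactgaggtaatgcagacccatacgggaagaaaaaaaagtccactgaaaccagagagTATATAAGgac
Mup21 (chr4:62150842-62150991): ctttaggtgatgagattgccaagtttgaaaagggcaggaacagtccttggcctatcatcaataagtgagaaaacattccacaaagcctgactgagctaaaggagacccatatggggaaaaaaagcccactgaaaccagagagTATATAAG
The full windows of both genes, from 250 bases before to 50 after the start, were identical at 276 of 306 aligned positions (90.2%), and the motif occurred in 1.01% of all windows. Mup3 was at 10381, 10566 and 10527 RPKM in HS+A10 and at 12141, 17063 and 13900.0 RPKM in A10-FMT (0.44 ± 0.12, adjusted p = 0.0245), and Mup21 rose from 858 ± 60.2 to 2038 ± 533 RPKM (1.22 ± 0.31, adjusted p = 0.0217).

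The list of 20 sex-biased liver genes (median 0.23) had 4 higher members, against 0.715% of all genes, and 14 that were not called. All 4 higher ones were Mup genes (Mup3, Mup7, Mup20 and Mup21). The 2 lower members, the female-biased Cyp2b13 and Acot3, were a share near the 11% of all genes. With 1 liver left out the higher count was 1 or 2, except without A10-FMT replicate 1 (4), and the lower count was 1 without A10-FMT replicate 3 and 3 without HS+A10 replicate 2. Cyp2b13 stood at 33, 7.48 and 3.12 RPKM in HS+A10 against 1.46, 1.06 and 0.4 RPKM (-2.46 ± 0.55, adjusted p = 0.0114), a value that HS+A10 replicate 1 dominated and that was -1.62 without it. Cyp2b13 too reached the tested level only through HS+A10, with means of 0.293 to 0.973 RPKM in the other groups. Members of other secreted or detoxifying families, likewise picked after their values were seen, were higher too, against 0.715% of all genes. Of 15 carboxylesterase (Ces) genes 5 were higher and 5 had differences below 0, and the higher ones included Ces3a (1189 ± 87.3 and 1673 ± 89.8 RPKM, adjusted p = 0.00749) and Ces1c (793 ± 56.1 and 1319 ± 34.9 RPKM). Of 6 Akr1c steroid reductases 3 were higher, led by Akr1c14 (98.5 ± 12.3 and 153 ± 5.74 RPKM, adjusted p = 0.00392), and of 4 Serpina1 protease inhibitors 2 were higher. Hamp, the iron hormone hepcidin, rose from 2434 ± 359 to 5597 ± 2051 RPKM (1.15 ± 0.32, adjusted p = 0.0298).

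The 12 higher genes with the smallest adjusted p and no overlap between groups also held Nrn1, Serpina11, the transporter Slc16a12, the G protein subunit Gna14, the ascorbate synthesis gene Gulo, Dnaic1, Nat8f1 and Sned1. The first of them was Col27a1, a fibrillar collagen, at 3.77, 5.74 and 3.39 RPKM in HS+A10 and 10.7, 9.65 and 13.7 RPKM in A10-FMT (1.23 ± 0.19). The 12 lower genes were led by Cplane1, a ciliogenesis gene, at 13.7, 14.1 and 16.2 RPKM against 5.84, 2.63 and 3.05 RPKM (-1.75 ± 0.18, adjusted p = 0.000579), followed by the complement regulator Cd55 (5.43 ± 0.558 and 2.19 ± 0.375 RPKM). Cplane1 averaged 10.5 RPKM in HS, 11.4 RPKM in Con-FMT and at most 0.573 RPKM without diet and streptozotocin, so among the diabetic groups A10-FMT stood lowest. Oat, a mitochondrial enzyme that breaks down ornithine, stood at 393, 379 and 344 RPKM against 101, 84.2 and 160.5 RPKM (-1.73 ± 0.23, adjusted p = 0.00139). Myo1c, Fam53b, Sh3bgrl2, Pecam1, Col4a2, Ccng1, Cd36, Mogat1 and Acot1 completed the lower set.

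Markers of the vessel wall were lower in A10-FMT. Of 10 markers of liver endothelial cells, 9 were lower, against 11% of all genes, and 7 after median scaling, against 3.67%. Pecam1, an adhesion molecule of endothelial cells, stood at 5.34, 5.59 and 6.42 RPKM against 3.01, 2.7 and 2.56 RPKM (-0.85 ± 0.11, adjusted p = 0.00139), without overlap, as for 28% of all genes. The VEGF receptor Kdr fell from 6.55 ± 1.25 to 3.1 ± 0.437 RPKM and the hyaluronan receptor Lyve1 from 2.14 ± 0.451 to 0.7 ± 0.14 RPKM. Stab2 was not called, at 7.59 ± 1.48 and 6.44 ± 0.906 RPKM. Summed over the 10 markers, the level was 71.5 to 89.9 RPKM in HS+A10 and 40 to 52.6 RPKM in A10-FMT. Leaving out A10-FMT replicate 3 left 6 of the 9.

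Of the 12 Kupffer cell and macrophage markers 3 were lower, Clec4f (25.9 ± 4.28 and 14.6 ± 0.864 RPKM), Vsig4 and Cd5l, and none after median scaling by limma (8 at an unadjusted p under 0.05 without that scaling and 5 with it). Without median scaling, the count of 3 became 0 without A10-FMT replicate 3 or HS+A10 replicate 3. It became 1 without A10-FMT replicate 2 or HS+A10 replicate 1. Their summed level was 155 to 213 RPKM in HS+A10 and 109 to 137 RPKM in A10-FMT, and none of the 12 was at 0. Of 10 stellate cell and fibroblast markers 2 were lower (Lrat and Rgs5), and the matrix list had 3 lower of 13, the basement membrane collagens Col4a1 and Col4a2 and Tgfb1, where 11% of all genes were lower. Col4a2 stood at 7.77, 8.84 and 8.93 RPKM against 5.01, 3.25 and 3.29 RPKM (-0.99 ± 0.13, adjusted p = 0.00139). Basement membrane collagens are made by endothelial and stellate cells, whose markers moved in the same direction, and their part in the result was not tested. Pancreatic acinar markers summed to 19 to 30.6 RPKM in HS+A10 and 32.4 to 38.2 RPKM in A10-FMT, without overlap, with 6 of the 21 at 0. Con-FMT replicate 3, at 27486.5 RPKM of these markers, entered their filter and their fitted spread. The absence of limma calls among them therefore cannot decide whether they differed. None of 6 erythroid markers was called by limma, also at an unadjusted p under 0.05 (0 genes). The erythroid markers summed to 2962 to 4064 RPKM in HS+A10 and 1692 to 2625 RPKM in A10-FMT, without overlap and with a median difference of -0.68, and their part in the other results was not tested.

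**Figure D4:**
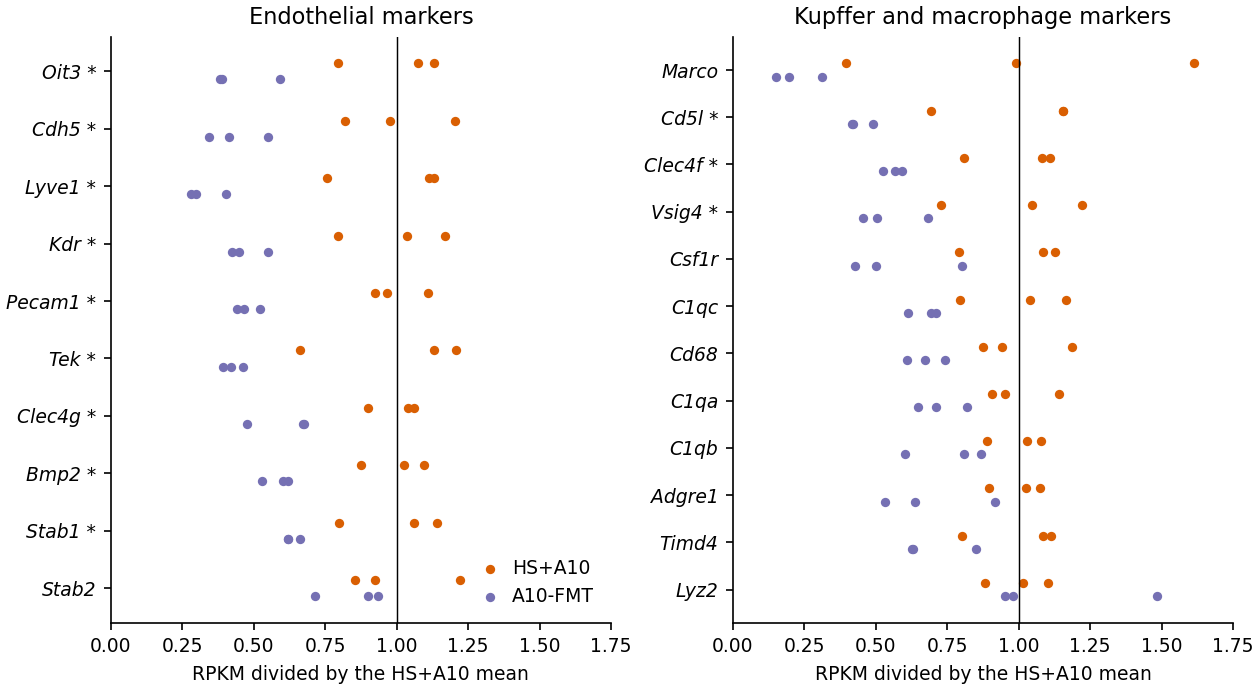
Level of endothelial (left, 10 genes) and Kupffer cell and macrophage markers (right, 12 genes) in each liver, as RPKM divided by the HS+A10 mean of that gene. Orange points are the 3 HS+A10 livers and purple points the 3 A10-FMT livers, the line marks 1, and a star marks an adjusted p under 0.05, which 9 of the 10 endothelial and 3 of the 12 macrophage genes reached.

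Several p53 targets were also lower in A10-FMT. Of 16 p53 targets and apoptosis genes, 7 were lower, against 11% of all genes, and none higher (median -0.30). After median scaling 5 were called, against 3.67%. Without that scaling at least 6 were called when any 1 liver was left out. Cdkn1a, the cell-cycle inhibitor p21, stood at 8.41, 17.9 and 11 RPKM in HS+A10 and at 3.82, 2.89 and 3.57 RPKM in A10-FMT (-1.54 ± 0.30, adjusted p = 0.00638), against means of 28.1 RPKM in HS and 20 RPKM in Con-FMT. Ccng1 (25.4 ± 3.02 and 14 ± 1.78 RPKM) and Phlda3 (4.52 ± 1.08 and 1.24 ± 0.312 RPKM) fell with it, as did Mdm2, Aen, Zmat3 and Bax, a trigger of mitochondrial cell death (31.9 ± 3.74 and 21.5 ± 2.62 RPKM; adjusted p = 0.0283, and 0.142 after median scaling). Of 22 antioxidant and NRF2 targets 6 were lower and 16 were not called (median -0.25), including the heme-degrading Hmox1 (20.4 ± 6.95 and 10.8 ± 2.84 RPKM) and Srxn1 (17.8 ± 0.357 and 9.91 ± 0.523 RPKM), and 2 were called after median scaling. Without that scaling, the antioxidant count of 6 fell to 2 without A10-FMT replicate 3. It was 3 without A10-FMT replicate 2 or HS+A10 replicate 3 and 4 without HS+A10 replicate 2.

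Of 24 drug-metabolising P450 genes 5 were lower, all in the Cyp2b and Cyp3a families, and 4 after median scaling, against 11% and 3.67% of all genes. Cyp3a11, the main hepatic Cyp3a enzyme of mice, stood at 2172, 1284 and 2308 RPKM in HS+A10 and at 516, 668 and 440.2 RPKM in A10-FMT (-1.80 ± 0.38, adjusted p = 0.00903), and Cyp3a25 fell from 638 ± 43.4 to 343 ± 125 RPKM. The Cyp2c, Cyp2d and Cyp1a genes were not called. Without median scaling, the count of 5 fell to 1 without A10-FMT replicate 3 and to 3 without HS+A10 replicate 3.

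Of the liver genes that the study itself measured and that are reported here, 9 could be tested and 1, Bax, was called. Cyp7a1, the rate-limiting enzyme of bile acid synthesis, stood at 20.1, 14.2 and 19.9 RPKM in HS+A10 and at 40.5, 34.8 and 37.4 RPKM in A10-FMT. The groups did not overlap, as for 4.05% of all genes in that direction, yet the difference of 1.03 had a 95% interval from -0.04 to 2.10 (adjusted p = 0.192). Nr1h3 (the sterol sensor LXRα), Nr1h4 (the bile acid receptor FXR), Acaa1a, Acaa2, Acox2, Rbp4 and Gpx1 were not called, with group means within 1.3-fold of each other. Dhrs9 and Bcl2 were below the level tested.

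A direct test of whether AOS acted alike by both ways sets each group against its own control: (A10-FMT minus Con-FMT) minus (HS+A10 minus HS). This difference of AOS effects was called for 240 genes (2.35%), 101 above 0 (0.99%) and 139 below (1.36%). Taken alone, A10-FMT differed from Con-FMT at 1914 genes (18.8%; 6.72% higher and 12% lower) and HS+A10 from HS at 747 (7.32%; 2.95% higher and 4.37% lower). These contrasts share no library, and across the 10204 genes, which are not independent replicates, the effects correlated at a Pearson's r of 0.305. The transfer effect includes Con-FMT replicate 3, the liver with pancreatic transcripts, and its part in the 1914 genes and the correlation was not tested.

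**Figure D5:**
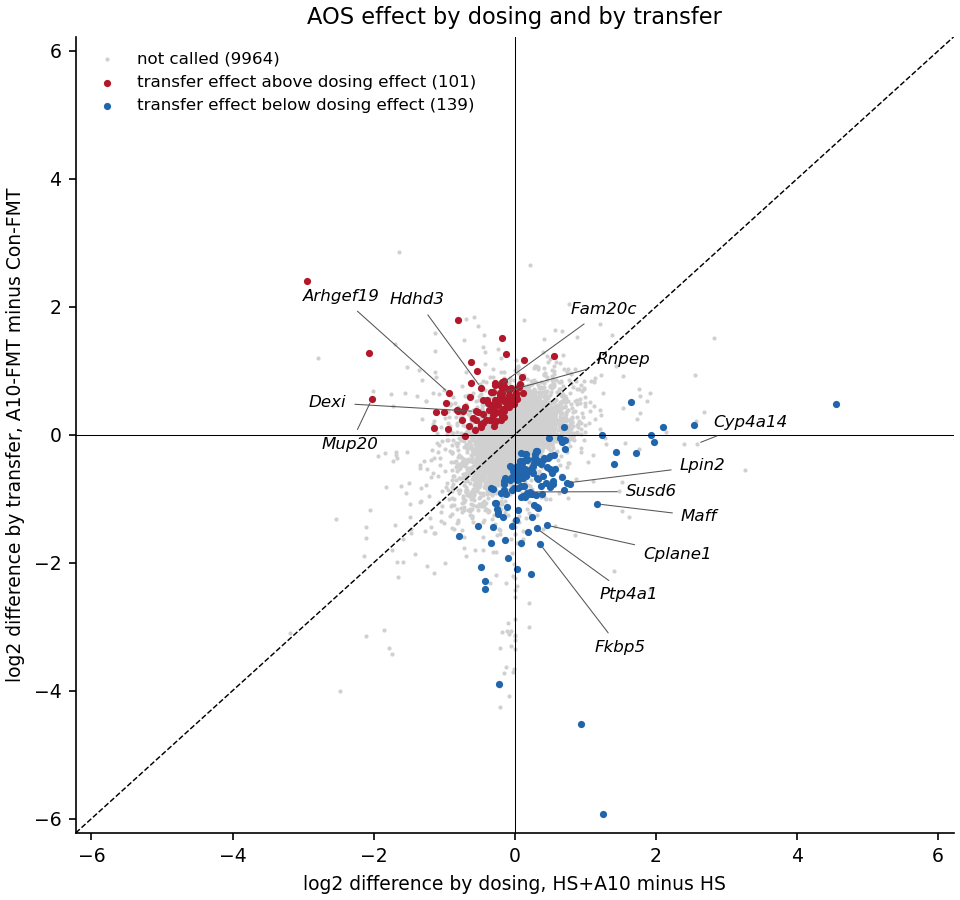
Effect of AOS by transfer (vertical axis, A10-FMT minus Con-FMT) against its effect by dosing (horizontal axis, HS+A10 minus HS), both in log2 of RPKM + 1, for 10204 genes. Red points (101) and blue points (139) are genes whose effects differed, the dashed line marks equal effects, and Cyp4a14 lies at 2.58 by dosing and -0.14 by transfer without being called.

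In Ptp4a1 and Fkbp5, among the genes with the smallest p, every Con-FMT liver was above every liver of the other diabetic groups. Ptp4a1, a growth-associated phosphatase, was at 97.2, 99.7 and 108 RPKM in Con-FMT and at 34.1, 34.9 and 39.9 RPKM in A10-FMT, while HS averaged 28.9 and HS+A10 36.4 RPKM (difference of effects -1.77 ± 0.18, adjusted p = 0.000347). Fkbp5, induced by glucocorticoids, was at 24, 14.7 and 22.4 RPKM in Con-FMT and 5.94, 6.25 and 4.25 RPKM in A10-FMT, with HS and HS+A10 at 5.17 and 6.92 RPKM (-2.06 ± 0.23). Lpin2 (-1.49) also rose by dosing, by 0.74 from HS to HS+A10 (adjusted p = 0.00394), and HS+A10 replicate 1, at 31.8 RPKM, stood beside the Con-FMT livers at 32.8, 32.4 and 36.3 RPKM. Lpin2, Maff (-2.25) and Susd6 (-1.11) completed the 5 with the smallest p. On the positive side Fam20c (0.99), Rnpep (0.86), Hdhd3 (1.22), Dexi (0.92) and Arhgef19 (1.59) were called. All of these but Dexi had their lowest mean of the diabetic groups in Con-FMT. Mup20 (2.58 ± 0.53, adjusted p = 0.0195) fell by dosing, by 2.03, and differed by 0.55 by transfer (adjusted p = 0.332).

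None of the 17 PPARα targets passed this limma test (8 were below 0 at an unadjusted p under 0.05), and the intervals were wide: Cyp4a14 -2.72 (95% interval -5.48 to 0.04), Cyp4a10 -2.54 (-4.93 to -0.14; adjusted p = 0.267) and Acot1 -1.49 (-2.51 to -0.47; adjusted p = 0.124). Cidec (-1.87 ± 0.44, adjusted p = 0.037) and Fabp4 (-1.26 ± 0.30, adjusted p = 0.039) did pass. Con-FMT replicate 3 held 27486.5 RPKM of pancreatic acinar markers, against at most 50.8 RPKM in any other liver. Without it 209 genes were called, 163 of them among the 240 and all 163 with the same sign, and Cidec and Fabp4 were not (adjusted p = 0.0649 and 0.0725). The HS livers also differed from the other diabetic groups in the clock-output gene Dbp, which averaged 1.73 RPKM there against 65.8 in HS+A10, 53.4 in Con-FMT and 77.9 in A10-FMT, and the part of this in the differences of AOS effects was not tested.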

How the data were processed

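RNA-seq of 18 mouse liver libraries was measured, and the values analysed here are the RPKM values the authors deposited in a table of 19057 genes with 1 column per liver. The study's methods name SOAPaligner for alignment, while the submitters' processing notes name Bowtie 0.12.2 and the mm10 build; the counting step, and whether it used strand, are not given in the sources used here. Of the symbols listed, 26 had been turned into dates and 3 symbols were listed more than once. RPKM values are not counts, so no count model was used and no counting interval is given.

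From the deposited RPKM, log2(RPKM + 1) was tested with limma 3.58.1 (R 4.3.3) over the 10204 genes whose mean reached 1 RPKM. The fit had 1 mean per group over all 18 libraries with a variance trend, and Benjamini-Hochberg adjusted p-values had a threshold of 0.05. The groups came from the labels. These fold changes understate the changes of low genes. The labels do not say that libraries came from separate animals, so p-values measure the spread between these samples. An exact permutation test of 3 livers against 3 cannot go below p = 0.1. The step was tested on simulated data with Python 3.11.15 and pandas 2.3.3 used around it.

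The comparison, the 36 gene lists and the marker lists were chosen with earlier results of these data known. Genes named in the text are the 12 per direction with the smallest adjusted p and no overlap between groups, up to 3 called genes per list with the largest difference, the genes the study measured, and the 5 per direction with the smallest p for the difference of AOS effects, together with family members and others chosen after their values were seen; some genes that this rule takes in are not reported here. Gene coordinates came from GENCODE M21 (GRCm38, the same assembly as mm10) and promoter windows from RefSeq GRCm38.p6, with pairwise alignment by Biopython 1.88. Other scalings, filters, pseudocounts, sets of libraries, a replicate block and leaving out each liver were tried as alternatives; list counts without each liver, and gene values without Con-FMT replicate 3, were added after seeing the data.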

Additional observations from a re-analysis of the deposited data

Results flagged for a closer look

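The AOS effect by transfer and the AOS effect by dosing differed, by limma's test of that difference, for 240 genes, of which the genes named here are listed by the log2 difference, transfer minus dosing. Below 0 were Mt2 (-7.17), Dbp (-4.08), Maff (-2.25), Fkbp5 (-2.06), Cplane1 (-1.87), Ptp4a1 (-1.77), Cidec (-1.87), Gdf15 (-1.58), Lpin2 (-1.49), Hmox1 (-1.40), Lyve1 (-1.32), Fabp4 (-1.26), Susd6 (-1.11), Cd55 (-1.03), Pecam1 (-0.79), Sh3bgrl2 (-0.79), Col4a2 (-0.79), Ccng1 (-0.77), Pck1 (-0.75), Aen (-0.74), Abhd5 (-0.53) and Pdia6 (-0.50). Above 0 were Mup20 (2.58), Arhgef19 (1.59), Hdhd3 (1.22), Fam20c (0.99), Nrn1 (0.99), Dexi (0.92), Rnpep (0.86) and Sned1 (0.58). Without Con-FMT replicate 3, the liver with pancreatic transcripts, Cidec (adjusted p = 0.0649), Aen (0.0652), Gdf15 (0.0697), Fabp4 (0.0725) and Pck1 (0.0547) were not called and the others were, and over all genes 163 of the 240 were called again.

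Cplane1, Cd55, Pecam1, Col4a2, Ccng1, Sh3bgrl2, Mup20, Nrn1 and Sned1 were also among the genes with the smallest p between A10-FMT and HS+A10, and both tests use those 6 livers. Cplane1 fell from Con-FMT to A10-FMT by 1.42 (adjusted p = 0.000165) and differed by 0.46 from HS to HS+A10 (adjusted p = 0.134). Pecam1 fell by 0.40 by transfer (adjusted p = 0.0196) and rose by 0.39 by dosing (adjusted p = 0.0429). Mup20 fell by 2.03 by dosing (adjusted p = 0.00705). The metallothionein Mt2 averaged 1226 RPKM in Con-FMT and between 16.8 and 67.9 RPKM in the other diabetic groups, and its difference of effects was -7.17 (adjusted p = 0.00767).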

How the results depend on the processing

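The number of genes called between A10-FMT and HS+A10 depended on scaling and on single livers. Against 1193 (73 higher, 1120 lower), limma called 551 (177 and 374) after median scaling, 511 (156 and 355) after quantile normalization, 627 (46 and 581) with the 12 diabetic livers only, 650 with the 6 livers only (578 lower), and 2 (0 higher, 2 lower) at an adjusted p under 0.001 with a difference of at least 1; at an unadjusted p under 0.05 there were 268 higher and 2641 lower genes. The share higher was 6.12%, 32.1% after median scaling and 30.5% after quantile normalization. Leaving out 1 liver gave 346 (without A10-FMT replicate 3) to 1705 genes (without A10-FMT replicate 1), with 22 to 68 higher and 324 to 1637 lower, and 517, 544 and 626 without A10-FMT replicate 2, HS+A10 replicate 2 and HS+A10 replicate 3. With median scaling as well, an alternative chosen after seeing the data, it gave 178 to 412, with 42 to 135 higher and 129 to 277 lower. The cause of these changes was not tested, beyond the smaller number of samples.

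For the difference of AOS effects, 240 genes became 155 at a mean of at least 5 RPKM, 75 with the 12 diabetic livers only, 9 at the stricter threshold and 126 to 350 with 1 liver left out, lowest without A10-FMT replicate 2, with 128 and 137 without HS+A10 replicates 1 and 3, and with more without HS replicate 1 than for any other liver.

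Counting each named gene once per alternative, 1339 results kept direction and side of the threshold, 235 kept direction only, 3 crossed it upward and none reversed. Most of these genes were named because they were called, so the tally does not describe genes at large. Differences near the all-gene shift of -0.12 depend on the scaling, and the unknown read depth leaves the precision of low genes unstated.

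Same-numbered livers deviated together at correlations of 0.137, 0.061 and 0.134, each the highest for its number. With 3 livers a group these values cannot show a pairing, and none is in the design. A replicate block gave 1050 genes (70 higher, 980 lower) and 218 for the difference of AOS effects.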

Other observations

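Several metabolic and stress gene lists not described above differed little or in few members. Beside these counts, 11% of all genes were lower and 0.715% higher. Of 23 genes of amino acid breakdown and the urea cycle, 4 were lower in A10-FMT (Oat, Hgd, Sdsl and Aass) and none higher. Aass, which starts lysine breakdown, stood at 83.9 ± 5.93 RPKM in HS+A10 and 57.7 ± 1.68 RPKM in A10-FMT. Of 18 retinoid genes 3 were lower, Rdh16 (42.9 ± 3.23 and 19.9 ± 3.73 RPKM), Aldh1a7 (41.8 ± 8.01 and 14.2 ± 3.33 RPKM) and Lrat, and 1 without A10-FMT replicate 3. Of 16 genes of the integrated stress response 4 were lower, including the hormone gene Gdf15 (8.11 ± 2.84 and 2.52 ± 0.562 RPKM) and Trib3 (16.8 ± 2.66 and 8.65 ± 2.44 RPKM), and 2 without A10-FMT replicate 3. Of 10 gluconeogenic genes Pck1 (1079 ± 179 and 774 ± 127 RPKM) and Pcx were lower, and neither after median scaling. The bile acid list had 2 lower of 21, the canalicular transporter Abcb4 (143 ± 14.4 and 81.4 ± 12.4 RPKM) and Abcc3.

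Cholesterol synthesis genes were not called. Of 24 genes 23 had differences above 0, with a median of 0.45, but limma called none, also at an unadjusted p under 0.05 (0 genes), and single livers disagreed: Sqle stood at 0.6, 0.42 and 7.54 RPKM in HS+A10 and at 4.02, 5.35 and 6.46 RPKM in A10-FMT. Heat shock genes had a median of 0.50 over 14 genes with none called by limma (3 higher and 1 lower at an unadjusted p under 0.05). Hspa1a stood at 2.27, 2.18 and 7.18 RPKM against 12.6, 12 and 55.2 RPKM (adjusted p = 0.0749). Of 14 immediate-early genes 3 were higher, Egr1, Fos and Dusp1, and Egr1 stood at 0.39, 0.87 and 0.94 RPKM against 3.13, 2.75 and 79.4 RPKM, so A10-FMT replicate 3 sets its size (2.65, and 1.20 without it). Between 0 and 3 of these genes were called when 1 liver was left out. The ER list had Xbp1 higher and Pdia6, P4hb and Dnajc10 lower of 23 genes, and the proteasome list 4 lower of 31, a share near that of all genes, with 0 after median scaling, 0 without A10-FMT replicate 2, 1 or 2 without HS+A10 replicate 1, 2 or 3 or A10-FMT replicate 3, and 12 without A10-FMT replicate 1. Clock was the only called gene of the clock lists (5 activators, 10 repressors and 11 output genes), and Hamp the only one of 22 acute-phase genes. Pgk1 was lower of 19 glycolysis genes, Insr and Trib3 of 18 insulin-signalling genes, and 3 of 38 oxidative phosphorylation genes, while of 16 glucocorticoid targets Dusp1 was higher and Pck1 lower.

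By limma no call was made, at an adjusted p under 0.05, among 24 interferon-stimulated genes (1 at an unadjusted p under 0.05), 17 antigen presentation genes (1 higher and 1 lower), 52 cytosolic ribosomal proteins (1), 30 ribosome biogenesis genes (1), 9 cell cycle genes (3) or 18 splicing factors (0). After median scaling 1 gene was called higher in each of the ribosomal protein, ribosome biogenesis and splicing lists, and 26, 7 and 6 of their genes were higher at an unadjusted p under 0.05. Of 10 hepatocyte markers Serpina1c was higher, of 3 adipocyte markers Fabp4 was lower with Plin1 at 0 in all 6 livers, and of 2 intestinal markers Apob, which hepatocytes also make, was lower. Cholangiocyte (4), neutrophil (2) and B cell (1) markers had no call, with 1, 0 and 0 at an unadjusted p under 0.05, and T cell and muscle markers were below the level tested.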
